A study of Danio rerio with 8 samples.

Results

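Liver holds hepatocytes and the blood that passes through them, so RNA taken from whole liver carries the messages of circulating red cells beside those of the tissue. Zebrafish red cells keep their nucleus, and immature ones go on transcribing globin genes in the circulation; in the adult fish they are formed in the kidney marrow. The genes described here follow that lineage. Hemoglobin is built from alpha and beta globin chains, here the adult globins *hbaa1*, *hbaa2*, *hbba1* and *hbba2*. Its heme starts with 5-aminolevulinate synthase, whose erythroid form is *alas2*. *slc4a1a* encodes band 3, the anion exchanger of the red cell membrane, and *cahz* a carbonic anhydrase of fish red cells. *gata1a* and *klfd*, now called *klf1*, encode the transcription factors GATA1 and KLF1 that switch on red cell genes, and *epor* encodes the erythropoietin receptor, which lets erythroid progenitors survive and divide.

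Expression was measured on 8 arrays of the ZebGene 1.1 ST design, each hybridised with liver RNA of adult wild-type zebrafish of the AB strain. The treated fish received oligo-fucoidan (OF), a low-molecular-weight preparation of the sulfated polysaccharide of brown seaweed, by oral gavage for 1 month, with 3 doses of 300 mg/kg each week, and the control fish were left untreated (mock). The fish were 5 months old at the start, and the labels give an age of 6 months. The arrays came from 2 batches of feeding, each with 2 OF livers and 2 control livers, so 4 OF livers and 4 control livers were compared. The labels do not say whether an array stands for 1 fish or for a pool, so the p-values measure the spread between these samples. A liver here means the sample on 1 array. Captions in the paper describe each point of its array plots as an average of 2 fish, but not how many arrays a point holds.

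The 10 genes were sought by their symbol in the batch 2 worksheet of the authors, among 22653 genes with a single symbol on 59300 tested transcript clusters. A transcript cluster is the set of probes summarised as 1 gene or part of one, and where a gene had several, the one brightest on average over the 8 arrays stands for it. By that rule 5 of the 10 were found, namely *alas2*, *slc4a1a*, *cahz*, *gata1a* and *epor*. None of the other 5 stands alone under its symbol, and *hbaa1* is listed only together with a second symbol. A gene table of the RefSeq assembly GRCz12tu led to 3 of them under another name (*klf1*, *hbaa2* and *hbba2*). The remaining 2, *hbaa1* and *hbba1*, were measured only on clusters that also match another globin gene, *si:ch211-5k11.8* and *ba1l*, and the 2 genes of each such pair cannot be told apart here. The brightest clusters of *hbaa1*, *hbba1* and *hbba2* are not placed on a chromosome and are marked for cross-hybridisation in the annotation. The main clusters of these genes are not so marked. The only cluster of *hbaa2* carries both a marked and an unmarked entry. The main globin clusters lie on chromosome 3, as do those of *slc4a1a* and *epor*, while *alas2* lies on chromosome 8, *cahz* on chromosome 2, *gata1a* on chromosome 11 and *klf1* on chromosome 6.

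The values are log2 signals. The array medians were 2.11 to 2.13 in batch 1 and 2.54 to 2.63 in batch 2, so every change with OF was taken within a batch or with batch as a term. Hepatocyte markers averaged 11.4 to 12.7 on every array. One feature of the livers has to be given before the results. The vitellogenins, yolk proteins that the liver makes under estrogen, averaged 10.56 and 11.66 in batch 1 OF livers, against 2.13 and 2.42 in batch 1 control livers. In batch 2 they averaged 12.26 and 2.17 in OF livers, against 12.37 and 12.49 in control livers. In batch 1, OF and high vitellogenin cannot be told apart, and in batch 2 OF replicate 2 stood apart from the other 3 livers. Whether the fish were male or female is stated neither in the labels nor in the methods.

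In batch 1 the hemoglobin and erythroid genes were low in the OF livers. Each of the 10 genes had both OF arrays below both control arrays, which held for 23.9% of all clusters. Within a batch a gene was called where it passed both thresholds in the methods of the study, an unadjusted p under 0.05 and a change of more than 2-fold, with p from limma, the moderated linear model used for every test here. By these 7 of the 10 genes fell (*hbaa1*, *hbaa2*, *hbba1*, *hbba2*, *alas2*, *slc4a1a* and *epor*), 3 of the 5 found by symbol among them, against 3.47% of all clusters called lower. Among the 16033 clusters with a log2 signal of at least 5 on at least 2 arrays, which 6 of the 10 genes passed, 9.66% were called lower. *slc4a1a*, *gata1a*, *klf1* and *epor* did not pass that filter. Their signals in batch 1 OF livers were 1.87 to 2.64, beside medians of 2.11 on those arrays, so their changes in batch 1 rest on dim signals. The median change of the 10 genes was −1.84 on the log2 scale, OF minus control, beside −0.03 over all clusters. After Benjamini-Hochberg adjustment over all clusters none of them passed in limma, with adjusted p-values of 0.204 to 0.61, although 8 of 10 had an unadjusted p under 0.05, as had 10.6% of all clusters. This was so for the whole array, since 0.0% of clusters passed an adjusted p under 0.05 in batch 1.

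In batch 2 the changes ran the other way. All 10 were positive, and 7 of 10 genes had both OF arrays above both control arrays, against 21.0% of all clusters. By the thresholds of the methods 7 rose (*hbaa1*, *hbba1*, *alas2*, *cahz*, *gata1a*, *klf1* and *epor*), 4 of the 5 found by symbol among them, against 2.55% of all clusters called higher, or 6.77% of the brighter clusters. The median change was 1.43, beside 0.03 over all clusters. None passed an adjusted p under 0.05 in limma (0.232 to 0.777), with 7 of 10 under an unadjusted 0.05. Of all clusters 0.0101% passed the first and 9.74% the second. The count rested on single livers. Without batch 2 OF replicate 2, the liver with low vitellogenin, 3 genes were called higher (*hbba1*, *cahz* and *gata1a*), and these were also the 3 that kept their call when batch 2 control replicate 2 was left out. With OF replicate 1 left out instead, all 10 were called.

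**Figure D1:**
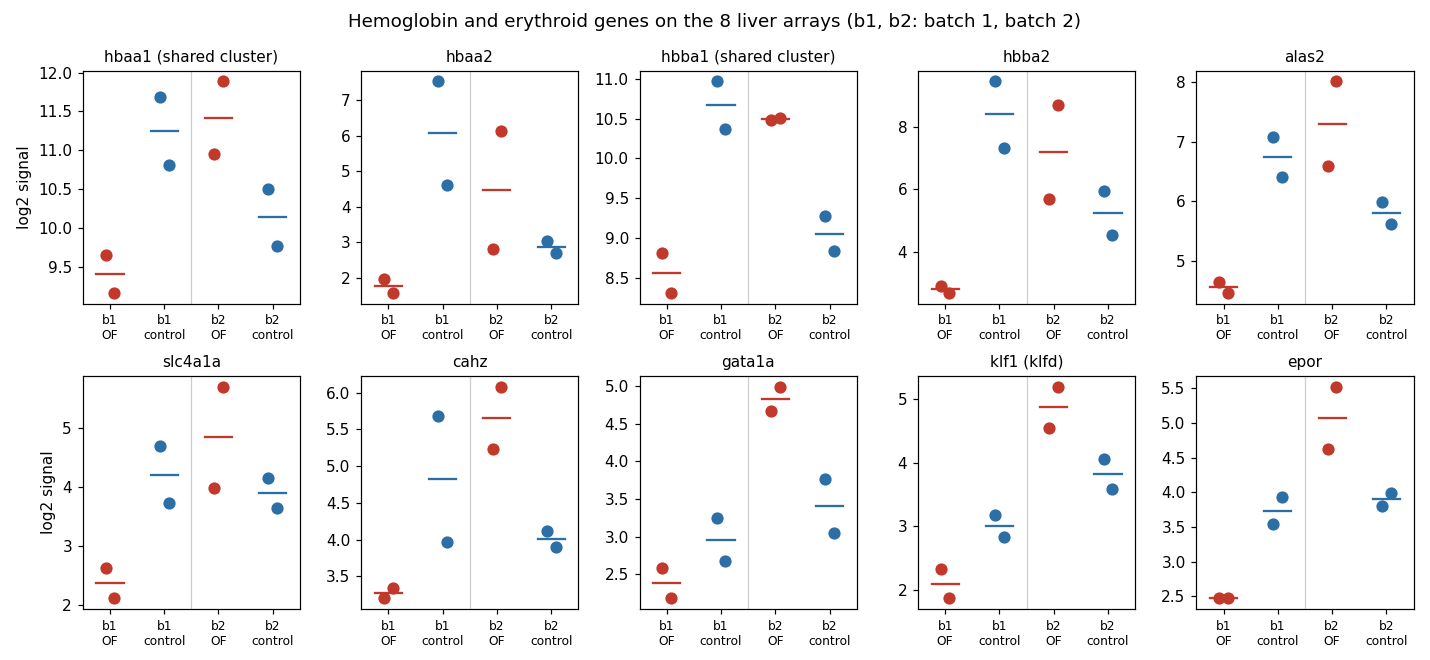
Log2 signal (y axis, 1 scale per gene) of the brightest cluster of each of the 10 genes on the 8 arrays. OF is in red and control in blue, for batch 1 (b1) and batch 2 (b2). Points are arrays and lines are the means of 2. In batch 1 the red points lie below the blue ones for all 10 genes, and in batch 2 they lie above the blue ones for 7 of 10.

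Among the globins, which carry oxygen in the red cell, the alpha globin *hbaa1* had log2 signals of 9.65 and 9.16 in batch 1 OF livers, against 11.68 and 10.81 in batch 1 control livers. In batch 2 *hbaa1* had 10.95 and 11.89 in OF livers, against 10.50 and 9.77 in control livers. The groups did not overlap in either batch, in opposite order. The change was −1.84 ± 0.39 (standard error of the fit, n = 2 in each group, as for all values within a batch) in batch 1, a fold of 3.59 lower, and 1.28 ± 0.44 in batch 2, a fold of 2.43 higher. Both passed the thresholds of the methods, with adjusted p-values from limma of 0.291 and 0.471. Its 5 clusters held 3 distinct sets of values, and the main cluster, placed on the genome, gave −1.60 ± 0.38 and 1.42 ± 0.42. The third set gave −1.83 ± 0.42 in batch 1 and 1.09 ± 0.46 in batch 2, where it did not pass.

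The beta globin *hbba1*, the partner chain, had 8.81 and 8.31 in batch 1 OF livers, against 10.97 and 10.36 in control livers. In batch 2 the OF livers had 10.48 and 10.51, against 9.27 and 8.84 in control livers. Here too the order of the groups was opposite in the 2 batches. The OF livers of batch 2, with vitellogenin means of 12.26 and 2.17, lay close together for this gene. Of the 10 genes *hbba1* had the closest pair, followed by *gata1a* (4.66 and 4.99), and *hbaa2* the widest (2.80 and 6.15). OF replicate 2 was the higher for all 10. *hbba1* fell by 2.11 ± 0.32 in batch 1 (adjusted p = 0.225, limma) and was 1.44 ± 0.24 higher in batch 2 (adjusted p = 0.232, limma). The 10 clusters of the gene held 4 distinct sets of values. All 10 passed the thresholds in both batches, and the main cluster gave −2.05 ± 0.69 and 2.97 ± 0.20. That main cluster was far dimmer, with a mean of 3.67 beside 9.69 for the brightest. Its signals in batch 2 control livers, 1.98 and 2.15, were below the medians of those arrays (2.56 and 2.54).

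The second pair of adult globins had the widest ranges of the 10 genes over the 8 arrays, 5.97 for *hbaa2* and 6.79 for *hbba2* on the log2 scale, where the other 8 spanned 2.66 to 3.58. *hbba2* had 2.90 and 2.67 in batch 1 OF livers, against 9.46 and 7.34 in batch 1 control livers. The change of −5.61 ± 0.78 (adjusted p = 0.211, limma) was the largest of the 10 in size and passed. In batch 2 *hbba2* had 5.69 and 8.71 in OF livers, against 5.95 and 4.52 in control livers, so the groups overlapped and the change of 1.96 ± 1.14 did not pass (adjusted p = 0.716, limma). The main cluster of *hbba2* gave −3.79 ± 0.91 in batch 1 and 1.75 ± 1.05 in batch 2. Its signals in batch 1 OF livers, 1.56 and 1.64, were below the medians of those arrays.

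*hbaa2*, the alpha globin of that pair, had 1.98 and 1.57 in batch 1 OF livers, against 7.54 and 4.63 in control livers. The OF livers of batch 2 had 2.80 and 6.15, against 3.05 and 2.69 in control livers. Only 1 of the 4 livers of batch 2 was high, OF replicate 2, and without it the change in batch 2 was −0.069 in place of 1.61 ± 1.15. In batch 1 *hbaa2* fell by 4.31 ± 1.06 (adjusted p = 0.327, limma). Both OF signals there were below the medians of their arrays, so no fold is given. Leaving out 1 array gave −5.76 to −2.85, and the call was lost without OF replicate 2.

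For heme, *alas2*, which commits the red cell to heme synthesis, had 4.65 and 4.46 in batch 1 OF livers, against 7.07 and 6.41 in control livers. For batch 2 the signals were 6.59 and 8.01 in OF livers, against 6.00 and 5.62 in control livers. Its levels followed those of *hbaa1* closely from liver to liver. *alas2* fell by 2.19 ± 0.30 in batch 1 (adjusted p = 0.204, limma) and rose by 1.50 ± 0.53 in batch 2 (adjusted p = 0.486, limma). A second cluster of the gene disagreed in part. It had 2.43 and 4.25 in batch 1 OF livers, against 3.94 and 5.75 in control livers, and changed by −1.50 ± 0.93 in batch 1 and 0.36 ± 0.30 in batch 2, without passing either time.

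Of the membrane and enzyme genes, *slc4a1a* had 2.64 and 2.11 in batch 1 OF livers, against 4.69 and 3.73 in control livers, and fell by 1.83 ± 0.42 (adjusted p = 0.309, limma), a call lost without batch 1 OF replicate 2. In batch 2 *slc4a1a* had 3.99 and 5.70 in OF livers, against 4.16 and 3.64 in control livers. The groups of batch 2 overlapped, and the change of 0.94 ± 0.63 did not pass (adjusted p = 0.758, limma). *cahz*, which interconverts carbon dioxide and bicarbonate, passed in batch 2 and not in batch 1. It had 3.20 and 3.34 in batch 1 OF livers, against 5.69 and 3.97 in control livers, and the change of −1.56 ± 0.63 did not pass (adjusted p = 0.52, limma), with the 2 control livers far apart. The batch 2 signals of *cahz* were 5.23 and 6.08 in OF livers, against 4.12 and 3.91 in control livers, and rose by 1.64 ± 0.35 (adjusted p = 0.285, limma), a fold of 3.12.

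The genes of both transcription factors passed the thresholds in batch 2 and not in batch 1. *gata1a*, whose product binds the regulatory elements of most red cell genes, had 2.58 and 2.18 in batch 1 OF livers, against 3.24 and 2.68 in control livers, a change of −0.58 ± 0.30 (adjusted p = 0.61, limma). Batch 2 gave *gata1a* 4.66 and 4.99 in OF livers, against 3.76 and 3.05 in control livers, and rose by 1.42 ± 0.32 (adjusted p = 0.301, limma). *klf1*, which in mammals activates the adult beta globin gene, had 2.33 and 1.87 in batch 1 OF livers, against 3.18 and 2.84 in control livers. Its change of −0.91 ± 0.26 was a fold of 1.88, under the fold threshold (adjusted p = 0.384, limma). In batch 2 *klf1* had 4.54 and 5.19 in OF livers, against 4.05 and 3.58 in control livers, and rose by 1.05 ± 0.33 (adjusted p = 0.431, limma).

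The receptor gene *epor* had 2.47 on both batch 1 OF arrays, against 3.54 and 3.93 in batch 1 control livers, and fell by 1.26 ± 0.22 (adjusted p = 0.24, limma). In batch 2 *epor* had 4.62 and 5.52 in OF livers, against 3.80 and 3.99 in control livers, and rose by 1.17 ± 0.36 (adjusted p = 0.425, limma). The groups did not overlap in either batch. The other 2 clusters of *epor* were dimmer and did not pass, with changes of −0.84 ± 0.72 and −0.22 ± 0.25 in batch 1 and 0.80 ± 0.57 and −0.08 ± 0.27 in batch 2. Averaged over its 3 clusters *epor* passed in neither batch (changes of −0.77 and 0.63, adjusted p = 0.592 and 0.673, limma).

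**Figure D2:**
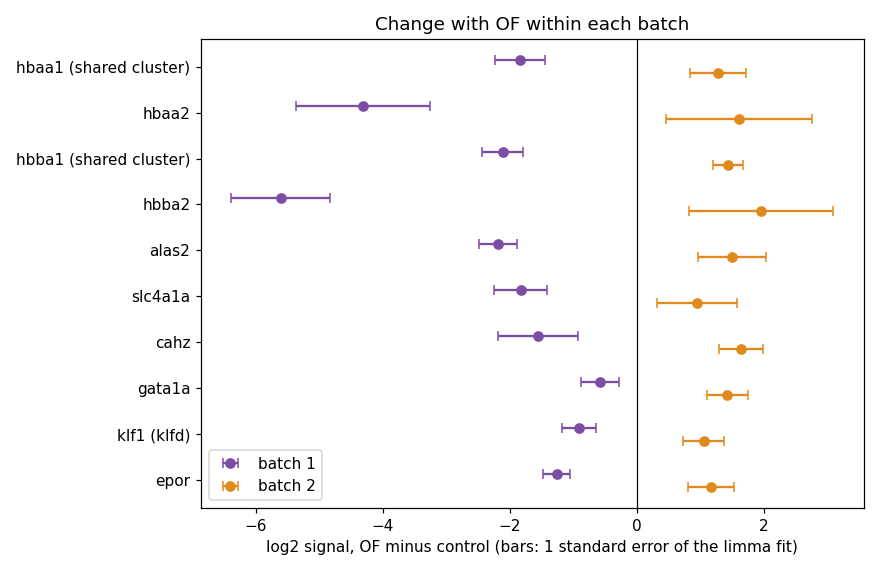
Change with OF in batch 1 (purple) and batch 2 (orange) for each gene, as log2 signal of OF minus control livers on the x axis, with 1 standard error of the limma fit. All purple points lie below 0, from −5.61 for hbba2 to −0.58 for gata1a, and all orange points above 0, from 0.94 for slc4a1a to 1.96 for hbba2.

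The difference between the batches was tested directly as an interaction of OF and batch over all 8 arrays. The change in batch 2 minus the change in batch 1 was positive for all 10 genes and ran between 1.96 ± 0.45 for *klf1* and 7.57 ± 1.59 for *hbba2*. No gene passed an adjusted p under 0.05 in limma (0.102 for *hbba1* to 0.232 for *slc4a1a*), where 0.00506% of all clusters did. An unadjusted p under 0.05 was reached by all 10, as by 14.3% of all clusters, and with a difference over 2-fold and positive by all 10, as by 6.42%. In limma fits of the 16033 brighter clusters alone, 27.3% had an unadjusted p under 0.05 for this difference. Within batch 1 the share was 17.1% and within batch 2 17.7%. For the 2-fold, overlap and call shares given here the brighter clusters were not counted. In 7 of 10 genes (*hbaa1*, *hbba1*, *alas2*, *cahz*, *gata1a*, *klf1* and *epor*) the OF arrays lay below the controls in batch 1 and above them in batch 2 without overlap, which 6.62% of all clusters did. *hbaa1*, *hbba1*, *alas2* and *epor* were called lower in batch 1 and higher in batch 2, as were 0.454% of all clusters.

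Over both batches together no change was called. With batch as a term, the change with OF was between −1.83 ± 1.62 for *hbba2* and 0.42 ± 0.44 for *gata1a* over 4 OF and 4 control livers. None of the 10 genes passed (adjusted p from limma 0.955 to 0.999, none with an unadjusted p under 0.05), and of all clusters 0.0% passed an adjusted p and 4.49% an unadjusted one. The 95% interval for *alas2* ran between −2.16 and 1.47, which holds changes over 2-fold of either sign.

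Of the 10 genes, 2 differed between the batches themselves. In batch 2 relative to batch 1, with OF as a term, *klf1* was higher by 1.79 ± 0.43 (adjusted p = 0.0228, limma) and *gata1a* by 1.45 ± 0.44 (adjusted p = 0.0495, limma). *epor* differed by 1.38 ± 0.51 (adjusted p = 0.0878, limma), and the 4 globins by −0.26 to 0.63. This has to be read against the batches as a whole, since 25.7% of all clusters were called higher in batch 2, and feeding, RNA preparation and array run cannot be told apart between them.

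The 10 genes varied together from liver to liver. After each value was expressed as its deviation from the batch mean, Pearson's r between pairs of genes over the 8 arrays was 0.669 to 0.982 with a median of 0.90 over 45 pairs, the highest for *hbaa1* with *alas2* and the lowest for *hbaa2* with *gata1a*. Without removing the batch means r was 0.377 to 0.970. The arrays share the same livers and the same 2 batches, and these values are given as a description. Within batch 1 the array of control replicate 1 was the highest for 9 of 10 genes (*epor* was highest in control replicate 2), and within batch 2 the array of OF replicate 2 was the highest for all 10. Batch 2 control replicate 2 was the lowest of its batch for 9 of 10.

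Within each batch, the array highest for each of the 10 genes was among the 3 with low vitellogenin. These were both batch 1 control livers and batch 2 OF replicate 2. Across the batches the arrays cannot be ranked in this way, since their signal levels differ. By the mean of the 10 genes, batch 2 OF replicate 1 had 5.95 and batch 1 control replicate 2 had 5.67. The medians of these 2 arrays were 2.63 and 2.13. Batch 2 OF replicate 1 had a vitellogenin mean of 12.26, close to the 12.37 and 12.49 of its controls. This array lay above both controls for 7 of 10 genes. In 21.0% of all clusters both OF arrays did so, and the share for this array alone was not counted. With mean vitellogenin as a covariate beside batch, the changes with OF over both batches were −0.996 to 0.61 with standard errors of 0.21 to 0.65. Without the covariate the standard errors were 0.43 to 1.62, and each of the 10 genes had the smaller one with it. The share of all clusters with a smaller one was not counted, so this cannot be read as particular to these genes. For *alas2* they were 0.77 without and 0.27 with the covariate. In the fit with the covariate 0 of 10 genes had an unadjusted p under 0.05 in limma, against 6.85% of all clusters. Without the covariate 4.49% of all clusters had one. The part of vitellogenic state in the erythroid signals was not tested beyond this fit.

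Likeness to the globins was not limited to red cell genes. Of 8241 genes with a range of at least 2 on the log2 scale, 198 had an r over 0.9 to the mean deviation of the 4 adult globins. The 10 most alike (r 0.973 to 0.989 over 8 arrays) were *dmgdh*, *ido1*, *pla2g12b*, *cyp8b1*, *nipsnap3a*, *parvb*, *LOC557028*, *ndufa2*, *pde10a* and *dcxr*. Of these *cyp8b1* encodes a sterol hydroxylase of bile acid synthesis, *dmgdh* a mitochondrial enzyme of choline breakdown and *ido1* an enzyme of tryptophan breakdown. *cyp8b1* had 6.71 and 6.58 in batch 1 OF livers, against 8.61 and 7.58 in control livers, and in batch 2 it had 8.21 and 9.003 in OF livers, against 8.20 and 7.60 in control livers. Its lowest and highest arrays were those of the globins within batch 2.

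Markers of other cell types were set beside the erythroid genes. The hepatocyte list had 10 of 12 genes with a lower mean in OF livers in batch 1 and 12 of 12 with a higher mean in batch 2, the same signs as the erythroid genes, but the median changes were −0.31 and 0.28 and none was called. Of all 59300 clusters, 31887 had a lower mean in batch 1 and 31731 a higher mean in batch 2. Those counts also stand beside the other counts of means below. Its array means were 11.43 and 11.56 in batch 1 OF livers, against 11.89 and 11.83 in control livers, and 11.81 and 12.70 in batch 2 OF livers, against 11.72 and 12.02 in control livers. *tfa* (transferrin), the brightest hepatocyte marker, stayed within 13.42 to 13.71 on all 8 arrays.

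Markers of other blood cells had calls in both directions. Of all clusters, 3.26% were called higher and 3.47% lower in batch 1, and 2.55% higher and 3.12% lower in batch 2. The thrombocyte list (7 genes measured) averaged 2.22 to 2.29 in batch 1 OF livers, against 2.56 to 2.76 in control livers, and 2.86 to 3.35 in batch 2 OF livers, against 2.87 to 3.09 in control livers. Of the list 1 gene was called lower in batch 1 and none in batch 2. By their means 7 of 7 thrombocyte genes were lower in OF livers in batch 1 (median −0.28). In batch 2, 5 of 7 were higher (median 0.20), so the medians had the signs of the erythroid genes. The lymphocyte list (11 genes) averaged 1.96 to 2.71 over the 8 arrays, with 1 gene called higher in batch 2. Neutrophil markers averaged 4.42 and 4.80 in batch 1 OF livers, against 3.73 and 4.22 in control livers, with 1 of 6 called higher, and 3.90 and 3.34 in batch 2 OF livers, against 3.61 and 3.41 in control livers, with none called. Macrophage markers averaged 5.08 and 5.07 in batch 1 OF livers, against 5.21 and 4.05 in control livers. Of the 8 genes, 2 were called higher in batch 1, opposite to the erythroid genes, and none was called in batch 2. By their means 5 of 8 were lower in OF livers in batch 1 (median −0.36). In batch 2, 5 of 8 were higher (median 0.31), so the medians had the signs of the erythroid genes. The brightest thrombocyte marker, *fli1b*, which endothelium also expresses, had 3.497 and 4.16 in batch 1 OF livers, against 5.42 and 5.00 in control livers. It was not called in batch 2. Endothelial markers had a lower mean in OF livers for 7 of 9 genes in batch 1 and a higher mean for 7 of 9 in batch 2, with 1 called lower in batch 1 and 0 called in batch 2.

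Ovary and pancreas markers differed between the livers too. The 8 ovary genes averaged 7.35 and 5.30 in batch 1 OF livers, against 1.75 and 1.89 in control livers, and 3.90 and 1.81 in batch 2 OF livers, against 2.90 and 3.94 in control livers. All 8 were called higher in batch 1, against 3.26% of all clusters, the opposite direction to the erythroid genes. Exocrine pancreas markers averaged 2.42 and 6.29 in batch 1 OF livers, against 5.96 and 8.03 in control livers, and 7.18 to 7.69 over batch 2. Kidney and marrow progenitor markers, the tissue where fish red cells form, averaged 3.44 to 3.57 in batch 1 OF livers, against 3.62 to 4.02 in control livers, and 4.51 to 4.77 in batch 2 OF livers, against 4.53 to 4.69 in control livers. The part of these other tissues in the erythroid signals was not tested. In whole liver, fewer red cells and less RNA per red cell cannot be told apart.

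**Figure D3:**
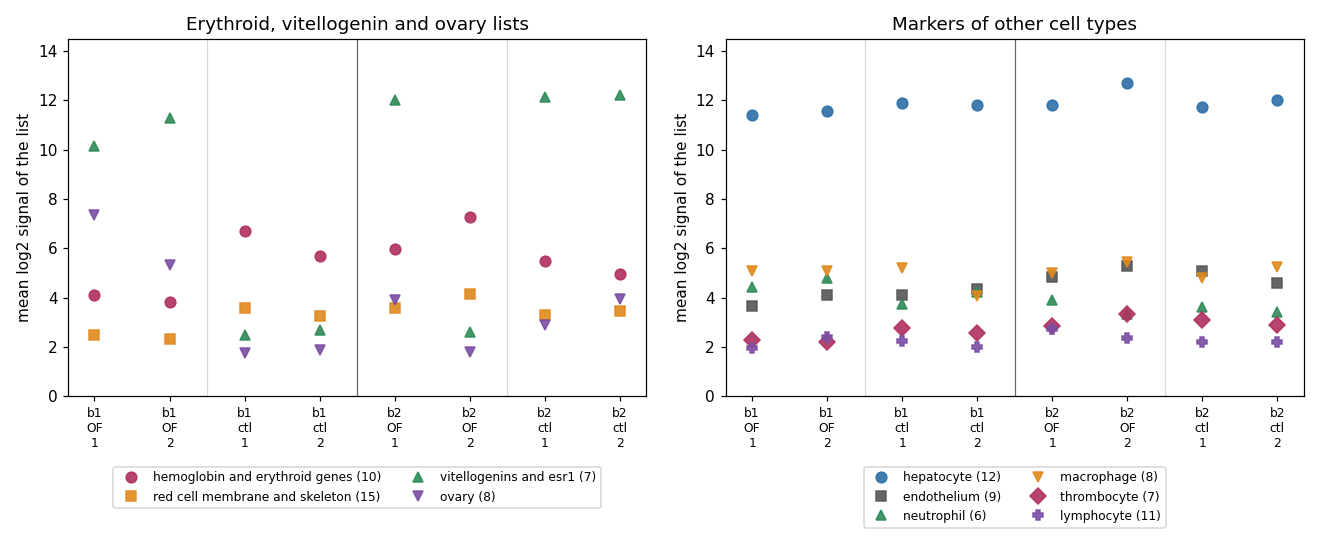
Mean log2 signal (y axis) of each list of genes on the 8 arrays (x axis; b1 and b2 are the batches, ctl is control, number of genes in brackets). The hemoglobin and erythroid genes average 4.12 and 3.81 in batch 1 OF livers against 6.71 and 5.67 in batch 1 controls, and 5.95 and 7.28 in batch 2 OF livers against 5.47 and 4.96 in batch 2 controls.

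The rest of the red cell pathway was read from lists of genes. Red cell membrane and skeleton genes had calls in the directions of the 10 genes. Of 15 measured, 7 were called lower in batch 1 and none higher, with a median change of −1.24, and in batch 2 2 were called higher and none lower, with a median of 0.44. Of all clusters 3.47% were called lower in batch 1 and 2.55% higher in batch 2. *tspan33a*, a tetraspanin that mammalian erythroid progenitors need, had 3.39 and 3.58 in batch 1 OF livers, against 6.37 and 5.76 in control livers. It changed by −2.58 ± 0.28 in batch 1, and in batch 2 by 0.88 ± 0.65, where it had 6.31 and 7.55 in OF livers, against 5.35 and 6.74 in control livers, and did not pass. *aqp1a.1*, a water channel of red cells and vessels, had 2.60 and 3.81 in batch 1 OF livers, against 4.92 and 5.08 in control livers, and was not called in batch 2. *tspan33b* and *epb41a* were dim in all livers (1.29 to 2.39) and did not pass in either batch.

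*rhag*, the Rh-associated glycoprotein that conducts ammonia across the red cell membrane, is named after its values were seen, because it was called in both batches. It had 2.11 and 2.34 in batch 1 OF livers, against 4.24 and 3.55 in control livers, and 5.44 and 5.97 in batch 2 OF livers, against 4.18 and 4.57 in control livers. The changes were −1.67 ± 0.31 and 1.33 ± 0.29. *epb41b*, a protein 4.1 of the membrane skeleton, also chosen after its values were seen, changed by −1.68 ± 0.57 and 1.54 ± 0.50 and was the other membrane gene called in both.

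Heme synthesis and iron supply genes had calls in both directions. Of 20 genes, 2 were called lower and 1 higher in batch 1 (median 0.20), and 5 lower and none higher in batch 2 (median −0.50). Of all clusters 3.26% were called higher in batch 1 and 3.12% lower in batch 2, and these shares also stand beside the lists that follow. *alas1*, the housekeeping form of the first enzyme and the main one in hepatocytes, had 9.13 and 8.71 in batch 1 OF livers, against 9.48 and 9.33 in control livers, and 10.26 and 8.15 in batch 2 OF livers, against 10.38 and 10.30 in control livers. In batch 2 OF replicate 2, where *alas2* was at its highest, *alas1* was at its lowest. *fech*, which inserts iron into the ring, had a change of −0.65 ± 0.38 in batch 1 and −0.86 ± 0.27 in batch 2, neither over 2-fold. The genes called lower in batch 1 were the transferrin receptors *tfr1a* (−1.92 ± 0.54) and *tfr1b* (−1.28 ± 0.23), the iron importers of erythroid cells and other tissues, named after their values were seen. Neither was called higher in batch 2. *hmbsa*, hydroxymethylbilane synthase, likewise named afterwards, had 5.54 and 5.04 in batch 1 OF livers, against 4.60 and 3.68 in control livers, and 4.05 and 5.09 in batch 2 OF livers, against 6.90 and 6.81 in control livers, and was called higher in batch 1 and lower in batch 2, opposite to *alas2*.

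**Figure D4:**
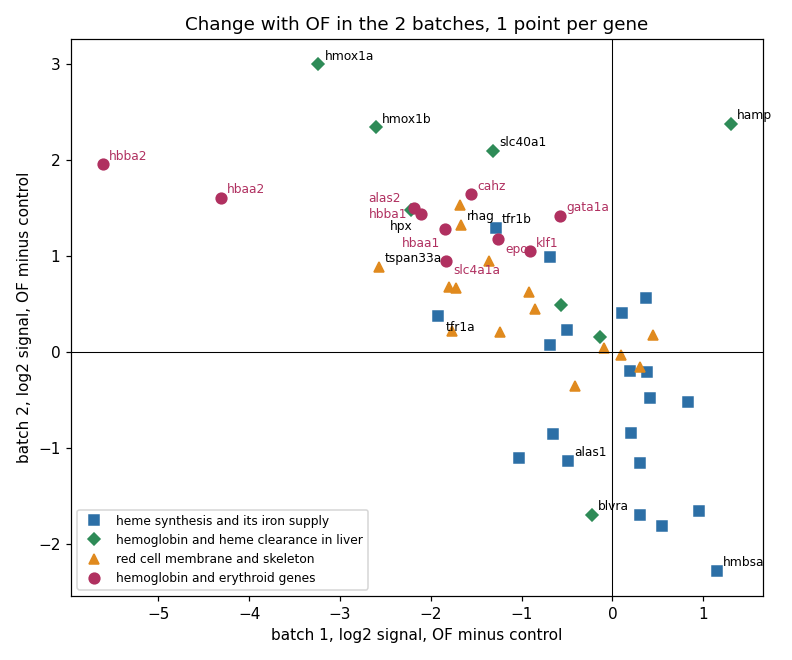
Change with OF in batch 1 (x axis) against batch 2 (y axis), both log2 signal of OF minus control livers, 1 point per gene. The hemoglobin and erythroid genes and 11 of 15 membrane genes lie in the upper left, lower in batch 1 and higher in batch 2, while heme synthesis genes scatter and hmbsa lies in the lower right.

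The transcription factor list of 18 genes had 1 called lower in batch 1 and none otherwise in either batch (medians −0.04 and 0.23). *hemgn*, *zfpm1*, *sox6* and *klf17* did not pass in either batch. *hemgn*, hemogen, a nuclear protein of blood cells, had 6.88 and 5.94 in batch 1 OF livers, against 6.75 and 7.16 in control livers. *zfpm1*, the FOG1 partner of GATA1, had 6.07 and 5.52 in batch 1 OF livers, against 5.59 and 5.63 in control livers. *gfi1b*, a repressor of erythroid and thrombocyte cells, was the 1 called lower (−1.06 ± 0.27) and is named for that reason.

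In erythropoietin signalling, 11 genes gave 1 lower and 1 higher call in batch 1, and 3 higher and none lower in batch 2 (medians −0.39 and 0.61). *stat5a*, a transcription factor that the receptor activates through the kinase JAK2, had 7.07 and 7.27 in batch 1 OF livers, against 8.02 and 8.45 in control livers, and fell by 1.06 ± 0.23. In batch 2 it had 7.99 and 9.04 in OF livers, against 7.76 and 7.28 in control livers, without passing. The changes of *jak2a*, which encodes that kinase, were −0.71 ± 0.22 in batch 1 and −0.89 ± 0.20 in batch 2, both under 2-fold. *pim1*, a kinase gene induced by cytokine signals, was called higher in both batches (2.00 ± 0.44 and 1.07 ± 0.26), and *stat5b* in neither. The ligand genes *epoa* and *epo* lay at 1.12 to 3.23 on all arrays.

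The embryonic and larval globins were also read. The 6 measured lay between 1.25 and 3.67 on every array, and none was called in either batch. On each array their mean (1.74 to 2.55) lay below the array median (2.11 to 2.63). A fall could hardly be seen at such signals, so these genes give no contrast with the adult globins. *hbae1* had 1.80 and 2.02 in batch 1 OF livers, against 2.28 and 2.02 in control livers, and 3.28 and 3.08 in batch 2 OF livers, against 2.68 and 3.26 in control livers. *hbae3* and *hbbe2* changed by −0.13 and −0.14 in batch 1, and by −0.30 and −0.34 in batch 2.

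Red cell enzymes and antioxidant genes, many of which hepatocytes also express, had 3 of 11 called lower in batch 1, and 1 higher and 1 lower in batch 2 (medians −0.43 and 0.15). *pklr*, the pyruvate kinase of liver and red cells, had 10.21 and 10.81 in batch 1 OF livers, against 11.56 and 12.31 in control livers, and fell by 1.43 ± 0.38. In batch 2 it changed by −0.48 ± 0.36 and did not pass. *cat*, catalase, lay at 11.26 to 13.27 and changed by −0.43 ± 0.18 and 0.28 ± 0.22.

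A list that joins hemoglobin and heme clearance in the liver with iron handling had 2 of 8 called lower and 1 higher in batch 1, and 1 higher and 1 lower in batch 2. Its counts and medians are therefore not those of heme clearance alone. By their means 7 of 8 were lower in OF livers in batch 1 (median change −0.94) and 7 of 8 higher in batch 2 (median 1.79), as the erythroid genes were (medians −1.84 and 1.43). *hpx*, hemopexin, the plasma protein that binds free heme, had 9.25 and 8.57 in batch 1 OF livers, against 11.26 and 10.99 in control livers, and fell by 2.22 ± 0.31. In batch 2 it had 10.55 and 11.85 in OF livers, against 10.29 and 9.14 in control livers, and the change of 1.48 ± 0.61 did not pass. *hmox1a*, the inducible heme oxygenase, was singled out after its values were seen. It had 3.11 and 3.38 in batch 1 OF livers, against 5.54 and 7.42 in control livers, and 4.92 and 9.40 in batch 2 OF livers, against 4.48 and 3.84 in control livers. It fell by 3.24 ± 0.69 in batch 1, and in batch 2 its change of 3.00 ± 1.53 rested on OF replicate 2, the liver in which all 10 erythroid genes were highest. *blvra*, biliverdin reductase, the enzyme after heme oxygenase, did not share this and fell by 1.70 ± 0.40 in batch 2. *hamp*, hepcidin, the hormone that closes the iron exporter, had 3.84 and 9.37 in batch 2 OF livers, against 5.21 and 3.24 in control livers, and again only OF replicate 2 was high.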

How the data were processed

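The authors processed the arrays with the Transcriptome Analysis Console (GC correction and signal space transformation) and deposited log2 signals for 75212 clusters. Folds and p-values in their worksheets are their own comparisons and were not used. Of the clusters, 59300 were tested and 84 control clusters left out. A single symbol named 24582, and a RefSeq accession 5643. The sources used here give no genome build.

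limma 3.58.1 in R 4.3.3 (lmFit, eBayes, Benjamini-Hochberg over all clusters), tested on simulated data, was fitted within each batch, over both with batch as a term, and with an interaction. The members and lists were chosen with earlier results of these data known. Genes named are the 10, the 2 brightest of each list or some of them, the 2 of each pathway list with the smallest p over both batches, the 10 most like the globins, and others marked as such. Bile duct markers (array means 5.91 to 6.95) are given here alone. Alternatives were quantile normalization, a signal filter, another prior, a replicate block, no batch term, 4 groups in 1 fit, all clusters of a gene, another threshold, a vitellogenin covariate and leaving out each array. The number of arrays limits the precision.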

Additional observations from a re-analysis of the deposited data

Results flagged for a closer look

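For 7 of the 10 genes both OF arrays lay below both control arrays in batch 1 and above them in batch 2. The same pattern was found in 6.62% of all clusters. The change in batch 2 minus that in batch 1 was 3.13 for *hbaa1*, 3.55 for *hbba1*, 3.69 for *alas2*, 3.20 for *cahz*, 2.00 for *gata1a*, 1.96 for *klfd* (*klf1*) and 2.44 for *epor* on the log2 scale. The interaction test in limma gave these adjusted p-values of 0.102 to 0.174, so none passed. Among the 4 control livers *cahz* had 5.69 in batch 1 control replicate 1 and 3.91 to 4.12 in the other 3, a gap of 0.878 of the whole range. Chance gives a gap near this size in about 1 in 20 groups of 4. All 10 genes were screened, among OF and among control livers, so 1 such gap can arise by chance. The 4 livers of each group also came from 2 batches.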

How the results depend on the processing

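Over both batches no gene passed under any alternative, and signs near 0 moved. Quantile normalization turned *cahz* to −0.031 and *klfd* to −0.12, the vitellogenin covariate turned *hbaa1* to 0.047, *alas2* to 0.056 and *epor* to 0.21, and the main design cluster, an alternative chosen after seeing the data, turned *hbba1* to 0.46. Leaving out 1 array gave −0.78 to 0.21 for *hbaa1*, −0.78 to 0.14 for *hbba1*, −0.9997 to 0.16 for *alas2*, −1.06 to 0.025 for *slc4a1a*, −0.45 to 0.71 for *cahz*, −0.26 to 0.36 for *klfd* and −0.47 to 0.28 for *epor*, and in batch 2 −0.069 to 3.28 for *hbaa2*. An adjusted p gave 0 of 10 genes in place of 7 in batch 1 and 0 in place of 7 in batch 2. With the signal filter, *hbba2* alone had an adjusted p under 0.05 in batch 1 (0.015, limma). The count in batch 1 was 5 to 8 with 1 array left out (5 without OF replicate 2). In batch 2 it was 3 to 10 with 1 array left out and 4 with the signal filter, which 6 genes passed. The difference between batches had 10 genes by the thresholds of the methods in place of 0 by adjusted p, and 0 to 1 with 1 array left out (1 without batch 1 OF replicate 2 or batch 2 OF replicate 1). A lone array was assumed to vary like the rest.

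With the replicate number as a block 4 genes were called higher in batch 2, and 7 lower in batch 1. The deviations of arrays with the same number had a correlation of 0.113 (batch 1) and −0.0727 (batch 2). With 2 arrays in each group, these values cannot settle whether a number marks a pair.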
